A study of Rattus norvegicus with 8 samples.

Results

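The tricarboxylic acid (TCA) cycle enzymes described here were the probe sets annotated to exactly 1 of 9 gene symbols: Cs, Idh2, Idh3a, Idh3b, Idh3g, Ogdh, Dlst, Suclg1 and Mdh2. The rule found 12 probe sets of the 31042 on the array that are no controls. Cs had 4 probe sets and each other gene had 1, and 0 probe sets with several symbols included a member. All 12 passed the filter on dim probe sets, which kept 18625. They were measured in hearts of female Norway Brown rats aged 18 to 22 months, on 8 single-colour Affymetrix arrays. Late estradiol rats were ovariectomized and received a subcutaneous 17-β estradiol pellet (0.5 mg, released over 90 days) after 9 weeks, early estradiol rats received the same pellet at the time of ovariectomy, ovariectomy rats received no pellet, and sham rats were opened and closed with their ovaries left in place. Each group had 2 arrays (replicates 1 and 2), and each array held pooled RNA of 3 hearts, so that the p-values measure the spread between pools, which can be technical in part. The labels do not say whether the pools of a group shared hearts.

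The TCA cycle runs in the mitochondrial matrix. It oxidizes the acetyl group of acetyl-CoA to carbon dioxide and hands the electrons to NADH and to the respiratory chain, from which the beating heart draws nearly all of its ATP. Citrate synthase (Cs) joins acetyl-CoA to oxaloacetate. Isocitrate is then oxidized either by the NAD-dependent enzyme, built of the catalytic subunit Idh3a with Idh3b and Idh3g, or by the NADP-dependent mitochondrial enzyme Idh2. The oxoglutarate dehydrogenase complex, with its first enzyme Ogdh and its core enzyme Dlst, makes succinyl-CoA. Suclg1 is the alpha subunit of succinyl-CoA ligase, and Mdh2, mitochondrial malate dehydrogenase, regenerates oxaloacetate.

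The promoters of 8 of the 9 genes, all but Idh3a, were in the RefSeq table for the build GRCr8. Those of Cs and Ogdh are shown because the signals of these genes were low in late estradiol hearts, although the brightest Cs probe set overlapped ovariectomy. Those of Idh3b, Idh3g and Dlst are shown because theirs stayed level. Mdh2 and Suclg1, which also stayed level, and Idh2 are not shown. Each line gives the 250 bases before the annotated start, 5′ to 3′ on the gene's strand. Capitals mark the GC box word GGGCGG and the ETS factor core CCGGAAG, in either direction; the words do not overlap here. The windows lie at chr7:1348139-1348388 (Cs, plus strand), chr14:85363781-85364030 (Ogdh, plus strand), chr3:137939991-137940240 (Idh3b, minus strand), chrX:156675483-156675732 (Idh3g, minus strand) and chr6:110489456-110489705 (Dlst, plus strand).
Cs: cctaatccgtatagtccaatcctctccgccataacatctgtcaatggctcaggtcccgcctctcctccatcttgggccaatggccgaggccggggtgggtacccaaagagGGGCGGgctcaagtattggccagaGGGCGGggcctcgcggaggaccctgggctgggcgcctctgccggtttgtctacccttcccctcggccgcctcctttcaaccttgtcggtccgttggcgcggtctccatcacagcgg
Ogdh: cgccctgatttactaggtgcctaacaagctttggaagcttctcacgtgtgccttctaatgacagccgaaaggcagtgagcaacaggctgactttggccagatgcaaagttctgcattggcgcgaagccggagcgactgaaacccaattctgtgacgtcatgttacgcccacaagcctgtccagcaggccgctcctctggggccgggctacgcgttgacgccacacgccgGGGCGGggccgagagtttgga
Idh3b: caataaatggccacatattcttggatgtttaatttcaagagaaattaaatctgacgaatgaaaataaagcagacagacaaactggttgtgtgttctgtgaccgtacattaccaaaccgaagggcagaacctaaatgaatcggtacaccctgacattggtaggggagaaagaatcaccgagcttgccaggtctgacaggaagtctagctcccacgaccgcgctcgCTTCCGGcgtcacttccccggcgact
Idh3g: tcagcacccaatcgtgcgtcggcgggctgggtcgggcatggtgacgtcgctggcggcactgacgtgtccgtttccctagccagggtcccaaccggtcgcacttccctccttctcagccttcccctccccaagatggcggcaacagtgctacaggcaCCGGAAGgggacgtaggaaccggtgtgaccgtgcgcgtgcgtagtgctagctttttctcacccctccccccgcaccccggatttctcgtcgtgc
Dlst: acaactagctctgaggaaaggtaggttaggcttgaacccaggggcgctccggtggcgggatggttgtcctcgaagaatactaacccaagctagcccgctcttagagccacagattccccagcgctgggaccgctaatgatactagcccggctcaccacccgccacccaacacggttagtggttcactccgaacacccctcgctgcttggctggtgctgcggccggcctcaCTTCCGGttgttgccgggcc

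Words were searched on both strands over 250 bases before to 50 bases after the start. The consensus palindrome of the estrogen response element was found in 0 of the 8 promoters, against 0.0269% of all 33469 promoters in the table. The element of the estrogen-related receptors TNAAGGTCA, which control many mitochondrial genes, was found in 0 of 8, against 1.2%, and the NRF1 consensus palindrome in 0 of 8, against 0.852%. The ETS core was found in 4 of 8 (Idh3b, Idh3g, Dlst and Mdh2), against 8.75% of all promoters, and the GC box in 5 of 8 (Cs, Ogdh, Idh2, Dlst and Mdh2), against 33.1%. Of the genes whose signals stayed level, Mdh2 and Dlst held both words, Idh3b and Idh3g an ETS core alone, and Suclg1 neither. The GC box words of Dlst lie after the start, outside the line shown above. A matched word describes these letters only, and no binding was measured. A link between these words and the signals was not tested.

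All values below are log2 signals after quantile normalization of the arrays, unless deposited signals are named. The arrays differed in brightness, with a 2% trimmed mean signal of 28.2 to 70.0 on the replicate 1 arrays and of 104.2 to 137.5 on the replicate 2 arrays. Among them the first late estradiol pool gave the dimmest array. The Gapdh signal at the 3′ end was 2.70 times that at the 5′ end on that array, a ratio that rises as RNA degrades, against 1.26 to 1.65 on the other 7 arrays. The same ratio for actin did not set that array apart, at 3.01, against 1.71 to 3.06 on the other 7. The 11 measured cardiomyocyte markers had mean log2 signals of 11.58 to 12.98. The adipocyte markers Adipoq, Plin1 and Lep did not pass the filter, while Lpl, Fabp4 and Cfd did, at 12.15, 10.75 and 5.90. The skeletal muscle markers Myh4, Actn3 and Tnnt3 did not pass, while Myh1, Tnni2 and Myh2 did, at 11.98, 4.90 and 3.71. In bulk tissue, fewer cells of a type and less RNA per cell cannot be told apart. No probe set passed an adjusted p of 0.05 in the F test over the 4 groups (limma, 0 of 18625, with 347 at an unadjusted p under 0.05).

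The 9 genes did not behave alike in late estradiol hearts. Idh3a and Ogdh had their lowest 2 arrays there. By its brightest probe set Cs lay below early estradiol and sham there but overlapped ovariectomy. Idh2 lay below sham and overlapped the other 2 groups. Idh3b, Idh3g, Dlst, Suclg1 and Mdh2 stayed within 0.14 of every other group's mean. No member passed the test in any of the 6 comparisons between groups, as no probe set of the array did (0% called in each), so that each difference below is a measured value and not a call. All 9 genes lay high on the array, from the 97.7th percentile of brightness for Idh3a to the 99.9th for Idh2, each by its brightest probe set.

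**Figure D1:**
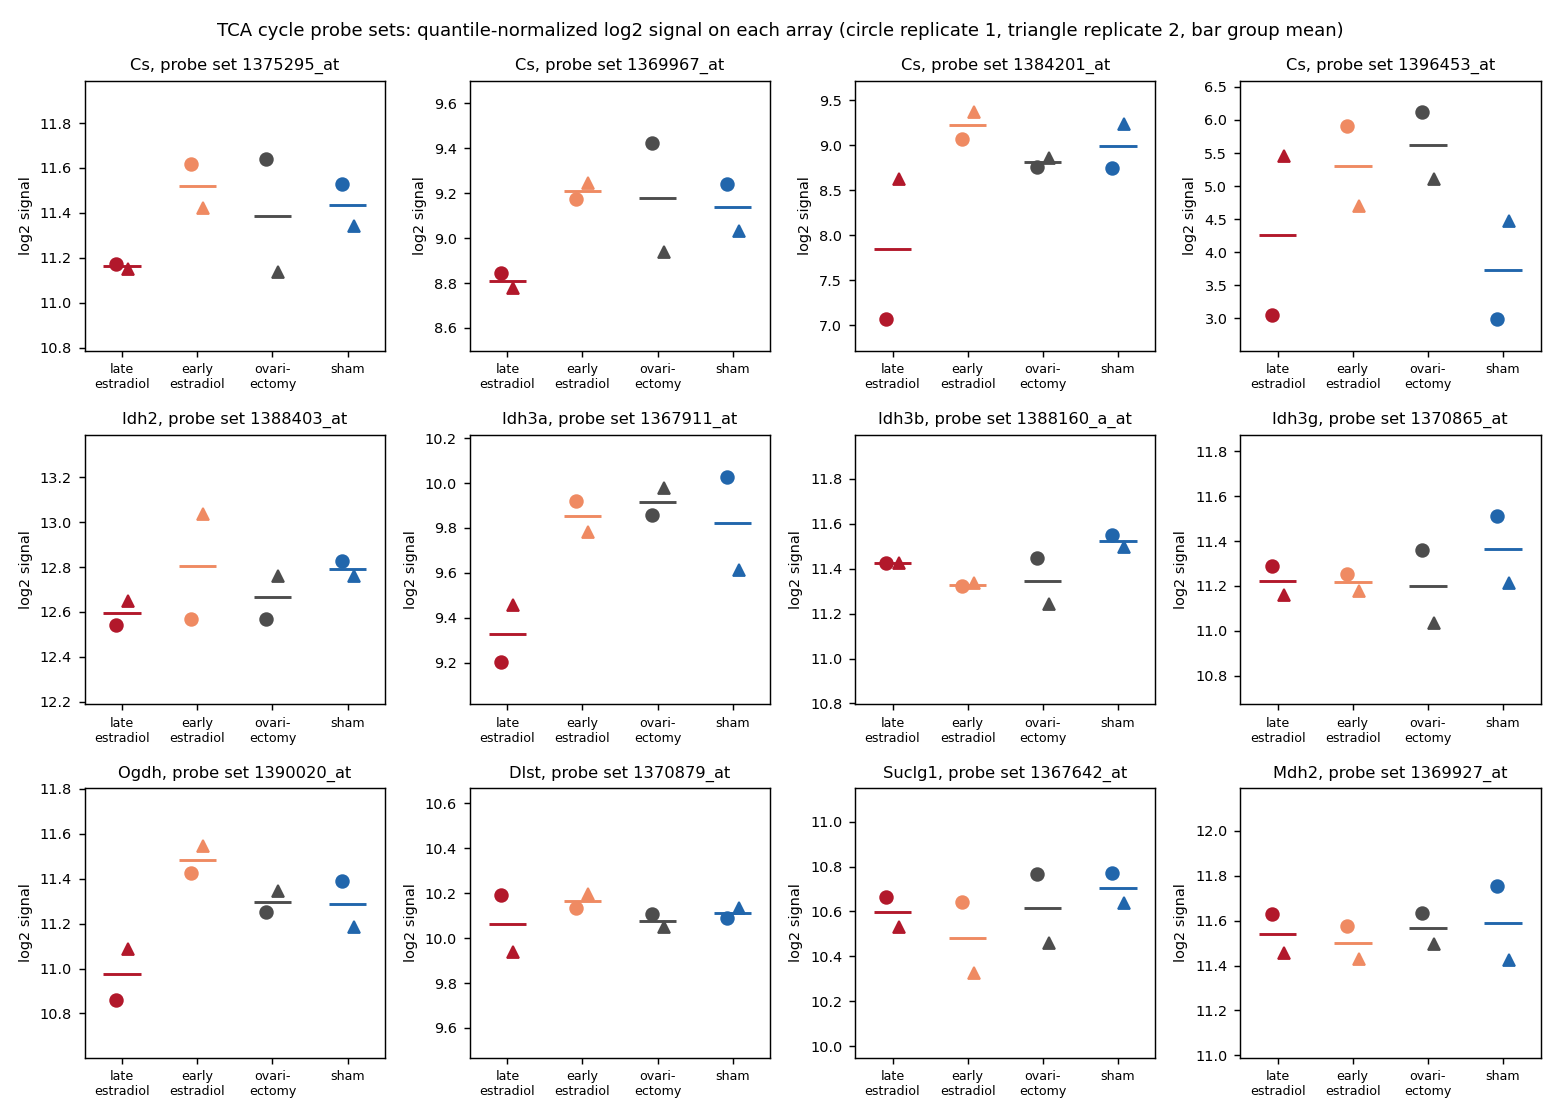
Quantile-normalized log2 signal (y axis) of each of the 12 TCA cycle probe sets, with the 4 groups on the x axis; circles are replicate 1, triangles replicate 2 and bars group means. The 2 late estradiol arrays lie lowest for Idh3a and Ogdh, and the y axes differ in level and span between panels.

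Idh3a, the catalytic subunit of the NAD-dependent isocitrate dehydrogenase, had log2 signals of 9.20 and 9.46 in late estradiol hearts, 9.92 and 9.78 in early estradiol hearts, 9.86 and 9.98 in ovariectomy hearts, and 10.03 and 9.61 in sham hearts. Both late estradiol arrays lay below the other 6, and the other 3 groups overlapped. The difference was -0.59 ± 0.19 (limma's moderated SE) for late estradiol against ovariectomy (95% interval -1.01 to -0.17, adjusted p = 0.943 over all probe sets). It was -0.52 ± 0.19 against early estradiol (adjusted p = 0.987) and -0.49 ± 0.19 against sham (adjusted p = 0.997). By pairs of arrays with the same number, late estradiol minus ovariectomy was -0.65 in replicate 1 and -0.52 in replicate 2. Against sham the pairs differed more, at -0.83 and -0.16.

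The partner subunits Idh3b and Idh3g did not follow Idh3a. Idh3b, a regulatory subunit, had 11.42 on both late estradiol arrays, 11.32 and 11.33 in early estradiol hearts, 11.45 and 11.24 in ovariectomy hearts, and 11.55 and 11.50 in sham hearts. Its lowest array was in the ovariectomy group, and late estradiol lay above early estradiol and below sham. Idh3g, the other regulatory subunit, had 11.29 and 11.16 in late estradiol hearts, 11.25 and 11.18 in early estradiol hearts, 11.36 and 11.04 in ovariectomy hearts, and 11.51 and 11.21 in sham hearts. Idh3g overlapped between late estradiol and each other group. For late estradiol against ovariectomy the difference was 0.08 ± 0.14 for Idh3b (95% interval -0.23 to 0.38) and 0.02 ± 0.17 for Idh3g (-0.35 to 0.40).

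In the ratio of 2 probe sets on the same array a scale common to the whole array cancels, while a shift that depends on brightness does not. Its own size has no meaning, because probe sets differ in response, but it can be compared between arrays. These ratios were chosen after the values were seen and carry no test. The log2 ratio of the deposited signals of Idh3a to Idh3b was -2.45 and -2.03 in late estradiol hearts, -1.47 and -1.41 in early estradiol hearts, -1.65 and -1.28 in ovariectomy hearts, and -1.39 and -1.77 in sham hearts. The late estradiol arrays lay below the range of the other 6, which was -1.77 to -1.28. The ratio of Idh3a to Idh3g had the same order, at -2.25 and -1.78 in late estradiol hearts, against -1.57 to -1.08 on the other 6 arrays. The ratio of Idh3b to Idh3g stood at 0.21 and 0.25 in late estradiol hearts and at 0.04 to 0.24 on the other 6. On the quantile-normalized signals the ratio of Idh3a to Idh3b was -2.22 and -1.97 in late estradiol hearts, against -1.89 to -1.27 on the other 6 arrays. The late estradiol arrays were still the lowest, but replicate 2 then lay close to sham replicate 2.

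The replicate 2 arrays had 2% trimmed mean signals of 104.2 in late estradiol, 137.5 in early estradiol, 116.3 in ovariectomy and 105.8 in sham hearts. The deposited signals of Idh3a and Idh3b on these arrays keep that difference in scale. Idh3a had 1088 in late estradiol hearts, 1805 in early estradiol hearts, 1759 in ovariectomy hearts and 1300 in sham hearts. Idh3b had 4446 in late estradiol hearts, 4791 in early estradiol hearts, 4273 in ovariectomy hearts and 4429 in sham hearts. The late estradiol array was thus lowest of the 4 for Idh3a, and above ovariectomy and sham for Idh3b. After normalization the replicate 2 differences of Idh3a were -0.33 against early estradiol, -0.52 against ovariectomy and -0.16 against sham. Those of Idh3b were 0.09, 0.18 and -0.07.

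**Figure D2:**
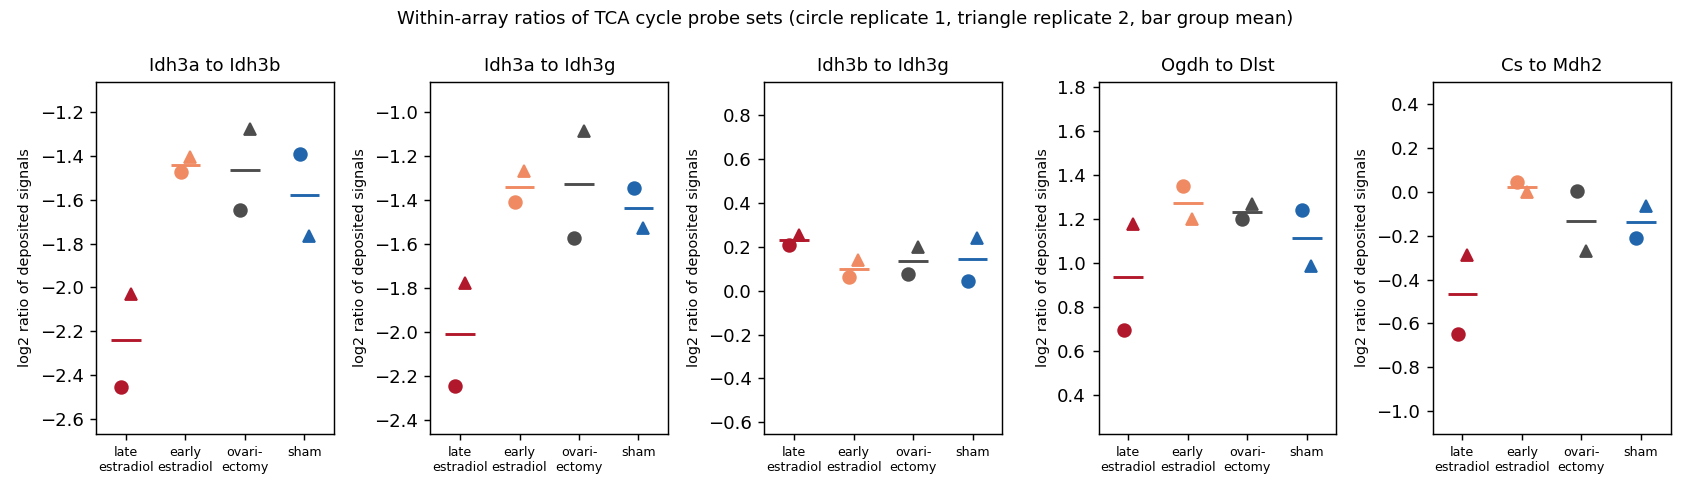
Log2 ratio of the deposited signals of 2 probe sets on the same array (y axis, a common span of 1.6 in each panel) by group; circles are replicate 1, triangles replicate 2 and bars group means. Idh3a to Idh3b and Idh3a to Idh3g are lowest on the 2 late estradiol arrays, and Idh3b to Idh3g is nearly level.

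Ogdh, the first and rate-setting enzyme of the oxoglutarate dehydrogenase complex, had 10.86 and 11.09 in late estradiol hearts, 11.42 and 11.54 in early estradiol hearts, 11.25 and 11.34 in ovariectomy hearts, and 11.39 and 11.18 in sham hearts. The late estradiol arrays lay below the other 6, and the early estradiol arrays above the other 6. The gap was widest between the 2 starts of estradiol, at -0.51 ± 0.15 for late against early (1.42-fold lower, 95% interval -0.85 to -0.17, adjusted p = 0.987), and it was similar in both pairs of arrays, at -0.56 and -0.46. Late estradiol against ovariectomy stood at -0.32 ± 0.15 (adjusted p = 0.943), and at -0.20 without late estradiol replicate 1. Against sham the value was -0.31 ± 0.15 (adjusted p = 0.997), with -0.53 and -0.10 in the pairs of arrays and -0.19 without late estradiol replicate 1. Early estradiol against ovariectomy stood at 0.19 ± 0.15.

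Dlst, the succinyltransferase that forms the core of the same complex, was the most level member, with all 8 arrays within 0.26. It had 10.19 and 9.94 in late estradiol hearts, 10.13 and 10.20 in early estradiol hearts, 10.11 and 10.05 in ovariectomy hearts, and 10.09 and 10.13 in sham hearts. Its difference for late against early estradiol was -0.10 ± 0.16. In deposited signals, the log2 ratio of Ogdh to Dlst rested on 1 array. It was 0.70 and 1.18 in late estradiol hearts, against 0.99 to 1.35 on the other 6. On the quantile-normalized signals it was 0.67 and 1.15, against 1.05 to 1.35. Late estradiol replicate 2 lay within the range of the other 6 either way.

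Cs, whose activity is a common measure of mitochondrial content, was read by 4 probe sets that were not alike. The brightest, 1375295_at, had 11.17 and 11.15 in late estradiol hearts, 11.62 and 11.42 in early estradiol hearts, 11.64 and 11.14 in ovariectomy hearts, and 11.53 and 11.34 in sham hearts. Late estradiol lay below early estradiol and sham and overlapped ovariectomy, whose 2 arrays were 0.50 apart. The difference was -0.36 ± 0.18 for late against early estradiol, -0.22 ± 0.18 against ovariectomy and -0.27 ± 0.18 against sham. The ovariectomy value turned to 0.03 without ovariectomy replicate 1.

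Probe set 1369967_at of Cs had 8.84 and 8.78 in late estradiol hearts, 9.18 and 9.25 in early estradiol hearts, 9.42 and 8.94 in ovariectomy hearts, and 9.24 and 9.03 in sham hearts, so that late estradiol lay below all other arrays. Probe set 1384201_at had 7.06 and 8.63 in late estradiol hearts, 9.07 and 9.37 in early estradiol hearts, 8.76 and 8.86 in ovariectomy hearts, and 8.75 and 9.24 in sham hearts. Here too both late estradiol arrays were lowest, but replicate 1, the array with the high Gapdh ratio, stood 1.56 below replicate 2. The difference for late against early estradiol was -1.37 ± 0.41 with both arrays, and -0.60 without late estradiol replicate 1. Without late estradiol replicate 2, replicate 1 alone stood for its group, so that no spread within late estradiol was measured. This probe set then stood at -2.14 against early estradiol, -1.73 against ovariectomy and -1.92 against sham. The part of RNA quality in these values was not tested.

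Probe set 1396453_at of Cs was dim and moved differently, with 3.05 and 5.46 in late estradiol hearts, 5.92 and 4.69 in early estradiol hearts, 6.12 and 5.11 in ovariectomy hearts, and 2.98 and 4.48 in sham hearts. Its spread within groups was wide, and ovariectomy against sham stood at 1.89 ± 0.86 while the brightest Cs probe set stood at -0.05 ± 0.18. In deposited signals, the log2 ratio of the brightest Cs probe set to Mdh2 was -0.65 and -0.29 in late estradiol hearts. On the other 6 arrays it was -0.27 to 0.04. On the quantile-normalized signals it was -0.46 and -0.30 in late estradiol hearts, against -0.36 to 0.04 on the other 6. Late estradiol replicate 2 then lay within their range.

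Idh2, the NADP-dependent mitochondrial isocitrate dehydrogenase and the brightest member, had 12.54 and 12.65 in late estradiol hearts, 12.57 and 13.04 in early estradiol hearts, 12.57 and 12.76 in ovariectomy hearts, and 12.83 and 12.76 in sham hearts. Late estradiol lay below sham on both arrays and overlapped the other 2 groups. Early estradiol replicate 2 was the highest array. The difference was -0.20 ± 0.17 for late estradiol against sham and -0.21 ± 0.17 against early estradiol, and the early estradiol value stood at 0.03 without early estradiol replicate 2.

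Suclg1 and Mdh2, which act after succinyl-CoA is made, had small differences between the groups. For both, as for Cs and Idh3g, replicate 1 lay above replicate 2 in all 4 groups. Suclg1 had 10.67 and 10.53 in late estradiol hearts, 10.64 and 10.33 in early estradiol hearts, 10.77 and 10.46 in ovariectomy hearts, and 10.77 and 10.64 in sham hearts. Mdh2 had 11.63 and 11.45 in late estradiol hearts, 11.58 and 11.43 in early estradiol hearts, 11.63 and 11.50 in ovariectomy hearts, and 11.76 and 11.42 in sham hearts. Late estradiol overlapped each other group for both genes. The Mdh2 differences between late estradiol and the other groups lay between -0.05 and 0.04, each ± 0.16, and those of Suclg1 between -0.11 and 0.11, each ± 0.17.

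Setting late estradiol against ovariectomy compares a pellet that starts 9 weeks after the ovaries are removed with no pellet. Estradiol and the implantation of a pellet cannot be told apart here. Over the 9 genes the median difference was -0.02, with 7 lower and 2 higher, against 0.01 over all tested probe sets. Of the 9, 2 (Idh3a and Ogdh) did not overlap between the groups and were lower, against 13.4% of all tested probe sets, and 0 were higher, against 15.7%. At an unadjusted p under 0.05, 1 gene (Idh3a) was lower, against 2.3% of all probe sets and 3.39% of the 707 at least as bright as Idh3a. In limma, 0 of 18625 passed, and 812 had an unadjusted p under 0.05; with the replicate number as a block 1 passed (0.00537%), Col3a1, which is no member. The lowest adjusted p of any member probe set with the block was 0.604.

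The comparison of late with early estradiol set the 2 times of the start against each other. A later start may go with a different length of exposure, and the comparison cannot tell them apart. The median was -0.10, with 5 genes lower and 4 higher, against -0.01 over all tested probe sets. Of the 9 genes, 3 (Idh3a, Ogdh and Cs) lay lower without overlap, against 16.3% of all probe sets, and 1 (Idh3b) lay higher without overlap, against 15.5%. At an unadjusted p under 0.05, 2 genes (Idh3a and Ogdh) were lower, against 2.58% of all probe sets and 4.24% of the 707 at least as bright as Idh3a. In limma 0 of 18625 passed, also with the block, and 721 had an unadjusted p under 0.05.

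The comparison of late estradiol with sham set the late pellet against intact ovaries. All 9 genes lay lower, between -0.49 for Idh3a and -0.05 for Dlst and Mdh2, with a median of -0.14 against -0.02 over all tested probe sets. Without overlap lay 5 of them (Idh3a, Ogdh, Cs, Idh2 and Idh3b), against 16.1% of all probe sets and 19.1% of the 707 at least as bright as Idh3a, the dimmest of the 9 by brightest probe set, and 0 lay higher, against 14.5%. At an unadjusted p under 0.05, 1 gene (Idh3a) was lower, against 1.97% of all probe sets and 2.83% of the same 707. In limma 0 of 18625 passed, also with the block, and 628 had an unadjusted p under 0.05. The 3 late estradiol comparisons share the same 2 late estradiol arrays, so that their values do not add to each other.

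**Figure D3:**
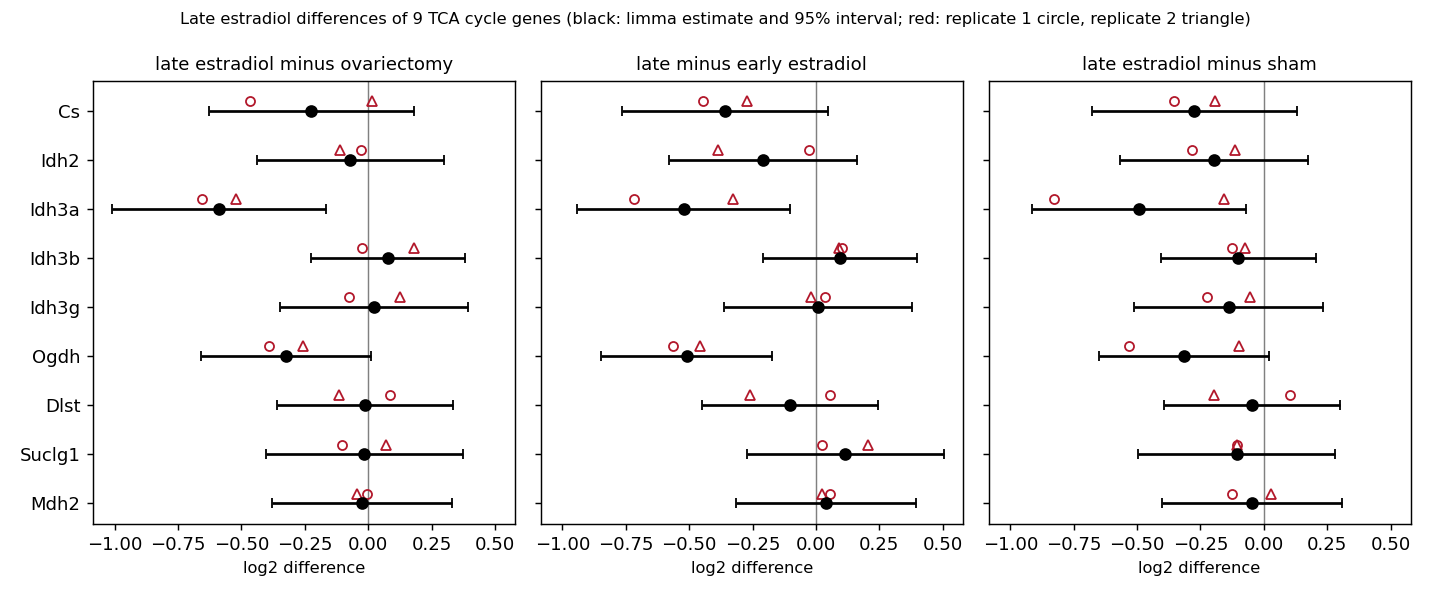
Log2 difference (x axis) of late estradiol against ovariectomy, early estradiol and sham for the brightest probe set of each of the 9 genes; black points with bars are limma estimates with 95% intervals, red circles and triangles the differences within replicates 1 and 2. Idh3a lies at -0.59, -0.52 and -0.49 and Ogdh at -0.32, -0.51 and -0.31, while Mdh2 lies between -0.05 and 0.04.

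Ovariectomy against sham sets the loss of the ovaries alone against intact rats. The median was -0.05, with 7 lower and 2 higher, against -0.03 over all tested probe sets, and the differences ran from -0.18 for Idh3b to 0.10 for Idh3a. Idh3b alone did not overlap (1 of 9 lower, against 14.1% of all probe sets, and 0 higher, against 11%). Early estradiol against ovariectomy had a median of 0.02, with 5 higher and 4 lower, against 0.02 over all tested probe sets, and ran from -0.13 for Suclg1 to 0.19 for Ogdh. Ogdh and Dlst lay higher without overlap (2 of 9, against 14.7%, and 0 lower, against 12.3%). Early estradiol against sham had a median of 0.01 and ran from -0.22 for Suclg1 to 0.20 for Ogdh, with 1 gene (Idh3b) lower without overlap, against 12.7%, and 1 (Ogdh) higher, against 12.1%. In limma 0 of 18625 passed in each of these 3 comparisons, with 274, 318 and 144 at an unadjusted p under 0.05, and 0 passed with the block. For the 9 genes the 95% intervals of the fit without the block reached 0.31 to 0.42 to either side.

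Across the 8 arrays the 9 genes did not move as one. Of the 36 pairs of genes, 23 had a Pearson r above 0, and the median r was 0.20, with a range of -0.62 to 0.86. Arrays of the same number differ alike and all 8 were normalized together, so that r is given as a description. The pairs named here were picked after the values were seen, and pairs of other genes were not counted. Idh3a and Ogdh were the most alike pair, at r = 0.86, and at 0.88 after the mean of each replicate number was subtracted. Idh3b and Idh3g had r = 0.78, and 0.88 after that subtraction. Idh3a with Idh3b, subunits of the same enzyme, had r = -0.18, and Ogdh with Dlst, parts of the same complex, r = 0.13. Idh3g with Mdh2 had r = 0.83 before and 0.51 after the subtraction, and Suclg1 with Mdh2 0.77 and 0.27.

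**Figure D4:**
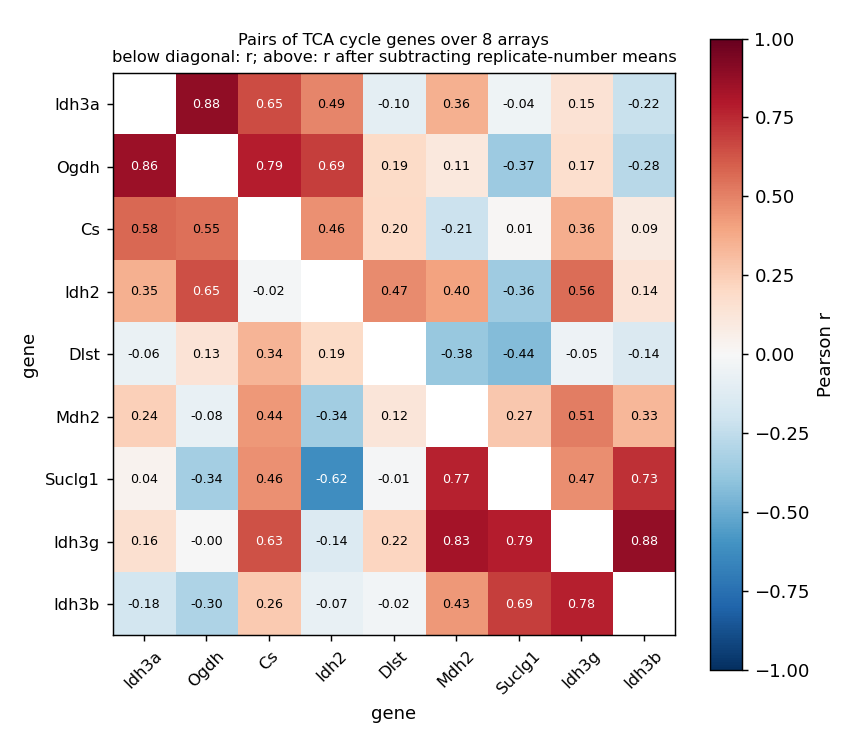
Pearson r over 8 arrays for each pair of the 9 TCA cycle genes, below the diagonal on the normalized log2 signals and above it after the mean of each replicate number was subtracted; the colour scale runs from -1 to 1. Idh3a with Ogdh (0.86 and 0.88) and Idh3b with Idh3g (0.78 and 0.88) have the highest values above the diagonal, and Idh3a with Idh3b is at -0.18 and -0.22.

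The mean of the 9 genes, each centred on its own mean, stood at -0.11 and -0.13 on the late estradiol arrays, 0.05 and 0.03 on the early estradiol arrays, 0.07 and -0.05 on the ovariectomy arrays, and 0.16 and -0.02 on the sham arrays. The genes outside the list most like this profile over the 8 arrays were Ctr9, a subunit of the PAF transcription complex (r = 0.97), Ankh, a membrane transporter linked to pyrophosphate (0.95), Xrcc5, a DNA end-binding protein of double-strand break repair (0.95), Hid1 (0.94) and Chrm2, the muscarinic receptor of the heart (0.94). After the mean of each replicate number was subtracted their r was 0.96, 0.94, 0.93, 0.93 and 0.94. They were the highest of 10441 genes over only 8 arrays, a search in which high values arise readily. Their mean log2 signals ran from 4.90 for Hid1 to 7.38 for Ankh, against 9.73 for Idh3a, the dimmest of the 9 members.

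Other genes of the pathway were counted from 3 lists. Of 13 other TCA cycle genes 11 were tested, and 0 passed in any comparison. For late estradiol against sham 9 of the 11 were lower (median -0.22), against early estradiol 8 of 11 (median -0.08) and against ovariectomy 7 of 11 (median -0.12). Those of smallest F-test p were Dld, the lipoamide dehydrogenase shared by the pyruvate and oxoglutarate complexes, Aco1, the cytosolic aconitase, and Sdhc, a membrane anchor of succinate dehydrogenase. Late against early estradiol, Dld stood at -0.66 ± 0.27, Aco1 at -0.47 ± 0.24 and Sdhc at -0.39 ± 0.23. With late estradiol replicate 2 alone the same differences were -0.34, -0.23 and -0.09. The dimmest array thus carried much of them: the list had a mean centred signal of -0.24 on late estradiol replicate 1 and 0.02 on replicate 2, and with replicate 2 alone 8 of 11 were lower than sham and 5 of 11 each lower than early estradiol and than ovariectomy.

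Of 13 genes of pyruvate entry into the cycle 12 were tested, and 0 passed. Late estradiol was lower than sham in 9 of 12 (median -0.18), than early estradiol in 8 of 12 (median -0.07) and than ovariectomy in 9 of 12 (median -0.09). With late estradiol replicate 2 alone the counts were 8, 6 and 6 of 12. Of smallest F-test p were Pdk3 and Pdk1, kinases that switch off pyruvate dehydrogenase, and Mpc1, part of the mitochondrial pyruvate carrier. They stood at 1.06 ± 0.54, 0.25 ± 0.23 and -0.28 ± 0.15 for late estradiol against sham, and at 0.71, 0.16 and -0.27 with late estradiol replicate 2 alone. Pdk3 was dim, with a mean log2 signal of 4.77, against 9.44 for Pdk1 and 11.69 for Mpc1. Of 17 genes of anaplerosis, shuttles and carriers 16 were tested, and 0 passed. Late estradiol was lower than early estradiol in 14 of 16 (median -0.16), than sham in 13 of 16 (median -0.22) and than ovariectomy in 11 of 16 (median -0.10). Here too the dimmest array stood apart, with a mean centred signal of -0.43 on late estradiol replicate 1 and 0.0024 on replicate 2. With replicate 2 alone 11 of 16 were lower than early estradiol, 11 than sham and 9 than ovariectomy. Got1, the cytosolic aspartate aminotransferase, Pck2, the mitochondrial form of phosphoenolpyruvate carboxykinase, and Acat1, an enzyme of ketone use, stood at -0.64 ± 0.26, -1.11 ± 0.59 and -0.18 ± 0.15 for late against early estradiol, and at -0.34, -0.25 and -0.23 with replicate 2 alone. Pck2 was dim too, with a mean log2 signal of 4.88, against 10.46 for Got1 and 10.50 for Acat1.

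**Figure D5:**
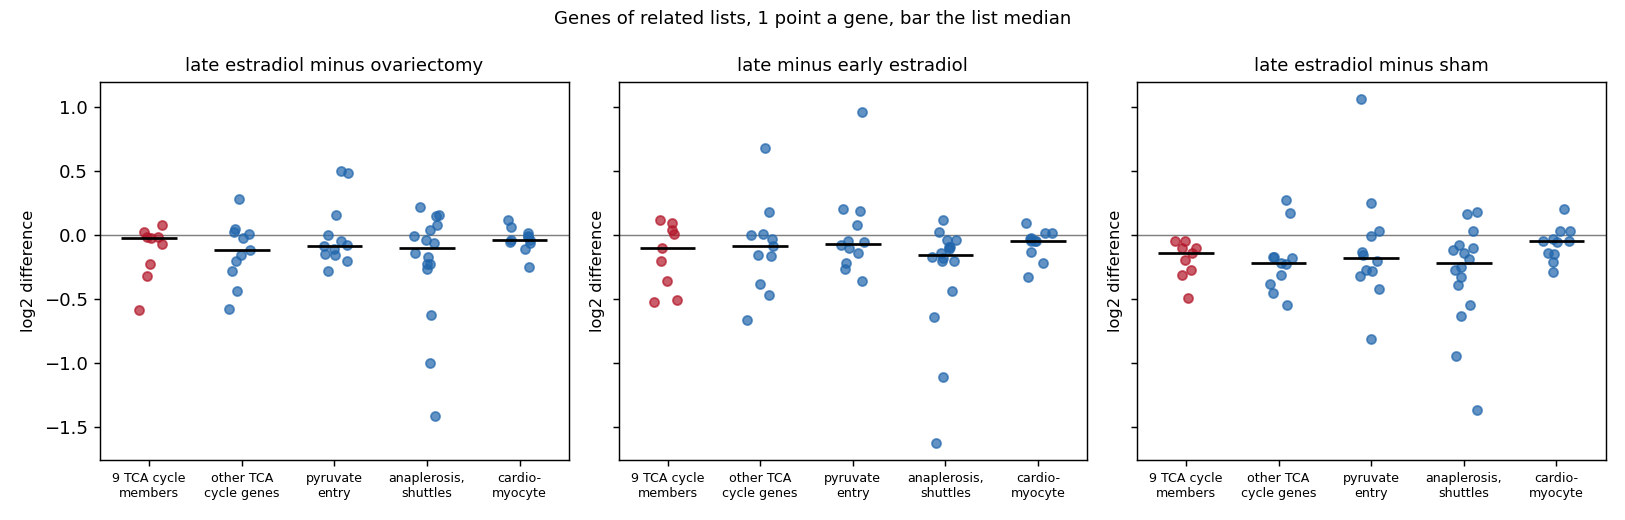
Log2 difference (y axis) of late estradiol against ovariectomy, early estradiol and sham, 1 point a gene, for the 9 TCA cycle members (red) and 4 other lists (blue); bars are list medians. The member medians are -0.02, -0.10 and -0.14, and the cardiomyocyte markers have medians of -0.04, -0.05 and -0.05.

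Markers of the cells a heart holds stood as follows beside these values. The 11 measured cardiomyocyte markers had a median of -0.04 for late estradiol against ovariectomy, with 8 of 11 lower. Their mean centred signal lay between -0.05 and 0.04 on all 8 arrays. Quantile normalization gives every array the same set of values, so that a shift shared by the brightest probe sets, as these are, would be largely removed. For late estradiol against ovariectomy, fibroblast markers were lower in 7 of 7, with a median of -1.19, and macrophage markers in 7 of 8, with a median of -0.58. Against early estradiol the late estradiol medians were -1.08 for fibroblast and -0.63 for macrophage markers, and against sham -0.33 and -0.23. With late estradiol replicate 2 alone the medians against sham were -0.06 (5 of 7 lower) and 0.02 (4 of 8 lower). Those against early estradiol were then -0.996 and -0.35, and those against ovariectomy -1.01 and -0.39. Of the other lists, smooth muscle markers had a median of -0.56 for late against early estradiol (4 of 5 lower), blood markers -1.001 (3 of 3 lower) and atrial markers -0.88 (3 of 4 lower). The endothelial, adipocyte and skeletal muscle medians were 0.09, 0.05 and 0.27. The atrial list differed most within groups, with a mean centred signal of 1.24 and -0.999 in late estradiol hearts, 1.71 and 0.05 in early estradiol hearts, -0.64 and -0.15 in ovariectomy hearts, and -0.81 and -0.40 in sham hearts. The mean centred signal of the fibroblast list was -0.68 and -0.44 in late estradiol hearts, 0.47 and 0.09 in early estradiol hearts, 0.25 and 0.56 in ovariectomy hearts, and -0.07 and -0.19 in sham hearts. That of the macrophage list was -0.83 and -0.06 in late estradiol hearts, 0.46 and 0.20 in early estradiol hearts, -0.38 and 0.99 in ovariectomy hearts, and -0.23 and -0.15 in sham hearts. No fibroblast or macrophage marker was missing from the array or failed the filter. The part of these cells in the TCA cycle values was not tested.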

How the data were processed

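Each array's deposited file column holds linear signal intensity by probe set, computed in MAS5 according to the submitters' processing notes. The MAS5 version, scaling target and detection calls are not stated in the labels or file headers. Gene symbols came from the platform annotation and matched RefSeq (GRCr8) for all 12 probe sets. The 57 control probe sets were left out, and log2 values were quantile-normalized. The 18625 probe sets with a mean at or above the 40th percentile entered a limma model (3.58.1, under R 4.3.3) over all 8 arrays (group means, intensity trend, 4 residual degrees of freedom), adjusted by Benjamini-Hochberg over all of them, two-sided, at 0.05. The code was tested on simulated data. Replicate 2 minus replicate 1 differences correlated between groups (r = 0.28 to 0.33 in 6 pairs of groups, across probe sets), so the number was tried as a block. A gene was represented by its brightest probe set; all 9 members were named, and the 3 genes of smallest F-test p in each other list. Members and lists were chosen with earlier results of these data known. Alternatives were other scalings, 32 added before log2, no filter, no trend, the block, probe sets averaged within a gene, each array left out and the 2 dimmest arrays left out. The number of arrays limits the precision.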

Additional observations from a re-analysis of the deposited data

How the results depend on the processing

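Over all alternatives run, the replicate 2 arrays alone included (chosen after seeing the data), the Idh3a difference lay between -1.01 and -0.46 when late estradiol was set against ovariectomy, -1.13 and -0.33 against early estradiol and -1.27 and -0.16 against sham, and that of Ogdh between -0.70 and -0.20, -0.99 and -0.37, and -0.96 and -0.10. The filter, the trend and the block cannot move these estimates. No member passed except Cs probe set 1384201_at without late estradiol replicate 2. Counts of called probe sets changed as follows. Ovariectomy against sham gave 5 without the 2 dimmest arrays and 0 to 3 with 1 array left out. Late estradiol against ovariectomy gave 1 with 32 added before log2, 1 with no filter and 1 with the replicate block, and 0 to 65 with 1 array left out. With 1 array left out, late against early estradiol gave 0 to 100, late estradiol against sham 0 to 86 and the F test 0 to 1; the highest of these came without late estradiol replicate 2, where the dimmest array alone stood for its group. The block changed no other call. The median of the 9 genes moved without between-array normalization to -0.26 for ovariectomy against sham, 0.12 for early estradiol against ovariectomy, -0.35 for late estradiol against ovariectomy, -0.46 for late against early estradiol, -0.13 for early estradiol against sham and -0.76 for late estradiol against sham. All tested probe sets then had medians of -0.31, 0.18, -0.31, -0.48, -0.14 and -0.62. With arrays centred on their medians it was 0.15 for early estradiol against ovariectomy, -0.24 for late against early estradiol and -0.37 for late estradiol against sham, where all probe sets had 0.20, -0.25 and -0.23. With 1 array left out the medians ranged from -0.16 to 0.00055 for ovariectomy against sham, -0.12 to 0.084 for early estradiol against ovariectomy, -0.14 to 0.051 for late estradiol against ovariectomy, -0.13 to 0.024 for late against early estradiol, -0.18 to 0.044 for early estradiol against sham and -0.24 to -0.080 for late estradiol against sham. The cause of these changes was not tested.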
